A study of Mus musculus with 2 samples.

Results

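A set of antioxidant genes that respond to the transcription factor NRF2 were followed in mouse urothelial organoids: Nqo1, Hmox1, Gclc, Gclm, Txnrd1, Srxn1, Gsr, Prdx1 and G6pdx. These 9 members were taken by symbol from a list, which was chosen with earlier results of these data known. All 9 were found once each among the 31053 genes of both libraries. Organoids are multilayered cultures grown in Matrigel from the epithelium that lines the bladder, here of wild-type C57BL/6 mice of 8 to 10 weeks. Proliferative organoids (P) were kept in complete medium, which holds WNT3A and RSPO1 conditioned media, EGF, Noggin and the TGF-β receptor inhibitor LY2157299. Differentiated organoids (D) were moved to a medium without these 5 components. N-acetylcysteine, a precursor of glutathione, is part of the complete medium and is not named among what was withdrawn. Each condition was read as 1 droplet-based single-cell RNA library (10x Genomics 3′ chemistry), so there is no replicate spread, no test and no p-value for any difference given here. Intervals are exact 95% intervals of counting error only.

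NRF2, encoded by Nfe2l2, is held at a low level by KEAP1, which feeds it to a CUL3 ubiquitin ligase. Oxidants and electrophiles modify KEAP1, NRF2 then accumulates, pairs with a small MAF protein and binds antioxidant response elements, while BACH1 competes for the same elements. The targets make and recycle glutathione, reduce thioredoxin and peroxiredoxins, detoxify quinones and heme, and supply NADPH, the reductant on which these systems draw. The bladder lining is exposed to oxidants and to excreted xenobiotics.

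To show what an antioxidant response element looks like at these genes, the core TGACNNNGC was searched on both strands of the RefSeq start windows of GRCm38.p6, which run from 250 bases before to 50 bases after each start. Windows were given for 6 of the 9 members. Hmox1, Gclc and Gsr were not matched. The core was found in 5 of the 6 (all except Nqo1), in a window of 1 of 3 starts for Txnrd1, and in 12.4% of all 32851 windows (14.0% of genes). A match describes letters, not binding, and the absence of a match at Nqo1 says only that these letters are not in this window. The 5 matches are shown because they are the letters searched for that these members have in common, with the core in capitals. Each reads 5′ to 3′ on the strand of the gene, and in each the core lies on the opposite strand.
Srxn1, chr2:152105542-152105570: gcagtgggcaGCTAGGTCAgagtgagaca
Gclm, chr3:122245413-122245441: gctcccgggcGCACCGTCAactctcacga
Prdx1, chr4:116685456-116685484: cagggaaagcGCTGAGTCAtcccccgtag
Txnrd1, chr10:82859104-82859132: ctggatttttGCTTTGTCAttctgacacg
G6pdx, chrX:74428919-74428947: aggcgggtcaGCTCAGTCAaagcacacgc
The core began 134 bases before the RefSeq start of its window at Gclm, 133 at Prdx1, 92 at Txnrd1 and 57 at G6pdx. At Srxn1 it began 28 bases past the start, inside the transcribed part. The cores at Txnrd1 and G6pdx, though before that start, also lay inside the GENCODE span of the gene given below. At Prdx1 it overlapped a match to TGANTCA, the element of AP-1 factors such as Fos and Jun. Any part of these factors in the Prdx1 level was not tested.

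Of barcodes with more than 800 genes and no more than 12% mitochondrial UMIs, 6818 of 8194 deposited barcodes remained in P and 4896 of 6975 in D, with a median of 3406 and 3228 UMIs per cell. A UMI tags 1 captured RNA molecule at its 3′ end, so levels count molecules and were not divided by gene length. Levels are UMIs summed over kept cells per 1000000 UMIs (CPM) of 26681469 in P and 20305621 in D. A pair of library-wide features touch every ratio. Ribosomal protein transcripts made up 37.4% of the P and 21.2% of the D total, and across 8939 genes that reached 100 UMIs in both libraries the median gene stood 0.42 higher in D (log2), so ratios are also given relative to that shift. Barcodes over the mitochondrial limit made up 5.81% of P and 27.3% of D. Epithelial markers Epcam, Cdh1, Krt5, Krt8 and Krt18 were abundant in both libraries, and all 4 globin genes were at 0 UMIs. Of 5 leukocyte markers Tyrobp and Cd3e were at 0 in both libraries, Ptprc had 1 UMI in P and 2 in D, Laptm5 7 and 400, and Cd68 545 and 132 (summed level 20.7 CPM in P and 26.3 CPM in D). Of 4 endothelial markers Cdh5 and Kdr were at 0, Pecam1 had 60 and 50 UMIs and Egfl7 78 and 17 (5.17 and 3.30 CPM summed). The 5 fibroblast markers summed to 1.99 CPM in P and 62.5 CPM in D, nearly all from Dcn (40 and 1234 UMIs), while Col1a1 had 0 and 10 UMIs and Col3a1 0 and 19. The part of such cells in the differences between libraries was not tested. A further check found 6 barcode sequences that occurred among kept cells of both libraries.

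The members did not differ between P and D as a block. On the CPM scale, Txnrd1, Srxn1 and Prdx1 stood about 2-fold higher in D, G6pdx was modestly higher, Gclc and Gclm were nearly level, and Nqo1, Hmox1 and Gsr were lower in D. Of the 9 members, 2 reached a 2-fold higher level in D, as did 13.5% of the 10719 genes that had 100 UMIs or more over both libraries, and 0 reached it in P, as did 4.73% of these genes. The members' median log2 ratio was 0.15, beside 0.41 over all such genes. Summed over the 9 members the level was 749.8 CPM in P and 1175 CPM in D, and Prdx1 alone supplied most of both sums. Relative to the shift of the median gene, 0 members reached 2-fold in D (5.64% of genes) and 1, Nqo1, reached it in P (8.65% of genes), and the members' median moved to -0.27.

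**Figure D1:**
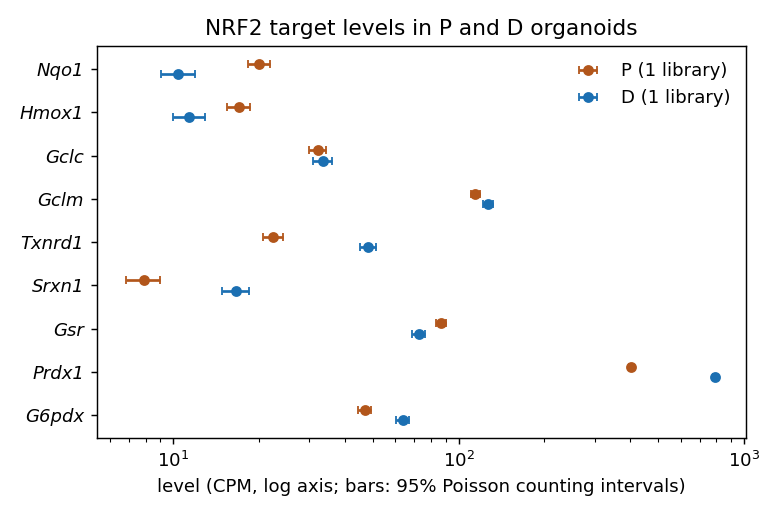
Level of each member in the P and the D library (CPM on a log axis, 1 library each), with bars for 95% Poisson counting intervals. Prdx1 lies far above the rest in both libraries (402 CPM in P, 792 CPM in D), Srxn1 lies lowest in P (7.87 CPM) and Nqo1 lowest in D (10.4 CPM).

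**Figure D2:**
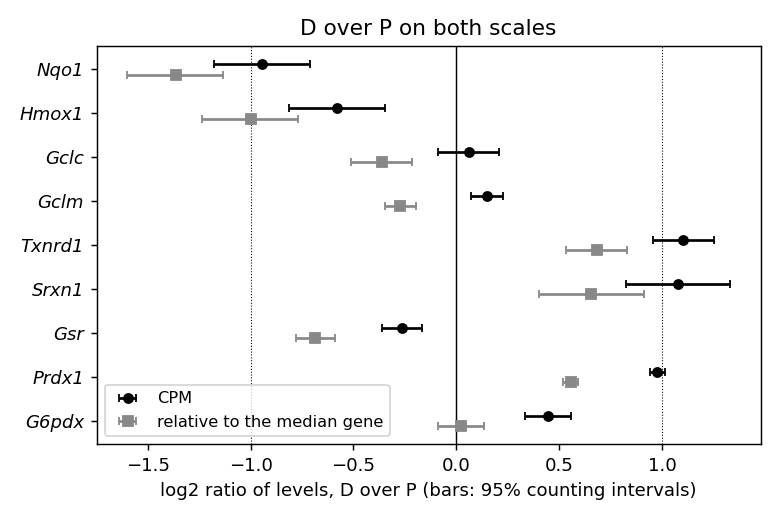
Log2 ratio of levels (D over P) of each member on the CPM scale (circles) and relative to the median gene (squares), with bars for 95% counting intervals and dotted lines at 2-fold. Txnrd1, Srxn1 and Prdx1 lie right of 0 and Nqo1, Hmox1 and Gsr left of 0 on both scales, while Gclc and Gclm change side.

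Thioredoxin reductase 1, peroxiredoxin 1 and sulfiredoxin form 1 chain: Txnrd1 encodes the NADPH-dependent reductase that recharges cytosolic thioredoxin, Prdx1 a thioredoxin-dependent peroxidase, and Srxn1 the enzyme that restores over-oxidised peroxiredoxins. Txnrd1 (ENSMUSG00000020250, GRCm38 chr10:82833951-82897712, plus strand) held 599 UMIs in P, or 22.5 CPM (20.7 to 24.3), and 980 UMIs in D, or 48.3 CPM (45.3 to 51.4). Its log2 ratio was 1.10 (0.96 to 1.25), and 0.68 relative to the median gene. Part of its locus is shared with Eid3 on the same strand, so a read there could belong to either gene. Srxn1 (ENSMUSG00000032802, chr2:152105516-152111376, plus strand) was the scarcest member in P, with 210 UMIs and 7.87 CPM (6.84 to 9.01), and reached 337 UMIs and 16.6 CPM (14.9 to 18.5) in D. The log2 ratio was 1.08 (0.82 to 1.33), and 0.65 relative to the median gene. Prdx1 (ENSMUSG00000028691, chr4:116685544-116700822, plus strand) was the most counted member, with 10729 UMIs and 402 CPM (395 to 410) in P and 16076 UMIs and 792 CPM (780 to 804) in D. Its 1.97-fold ratio (log2 0.98, 0.94 to 1.01) fell just short of the 2-fold rule, and was 0.56 on the log2 scale relative to the median gene. None of these intervals for P and D overlapped.

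On the CPM scale, Txnrd1, Srxn1 and Prdx1 were higher in D whichever clusters were set against each other. The median gene also stood 0.42 higher in D (log2). The share of all genes on 1 side in every pair was not taken, so counts of pairs are descriptions of single genes. Clustering of each library separately gave 4 clusters in P (P0 to P3) and 3 in D (D0 to D2), hence 12 pairs of a D over a P cluster. Txnrd1 was higher in D in 12 of 12 pairs, all beyond counting error, with log2 ratios from 0.52 (D1 over P3) to 2.12 (D2 over P0). Prdx1 was higher in 12 of 12, all beyond counting error, from 0.27 (D1 over P3) to 1.23 (D2 over P2). Srxn1 was higher in 12 of 12, of which 10 lay beyond counting error, from 0.35 to 1.67. Relative to the shift of the median gene, Txnrd1 was higher in 12 pairs (9 beyond counting error), Srxn1 in 11 (8 beyond it) and Prdx1 in 10 (9 beyond it, and 1 pair lower beyond it). Other genes of these families differed less between the libraries on the CPM scale, most of them also toward D. Their log2 ratios were 0.63 for Txnrd2 (89 and 105 UMIs), 0.51 for Prdx2, 0.40 for Prdx3 and 0.30 for Txn2. Txn1 was at 0.13, Prdx5 at 0.10, Prdx4 at 0.04 and Prdx6 at -0.33.

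Nqo1 and Hmox1 handle electrophilic and pro-oxidant molecules: Nqo1 encodes a quinone reductase and is the usual reporter of NRF2 activity, and Hmox1 encodes the inducible heme oxygenase, which opens heme to biliverdin, iron and carbon monoxide. Nqo1 (ENSMUSG00000003849, chr8:107388225-107403206, minus strand) had 533 UMIs in P, or 19.98 CPM (18.3 to 21.7), and 211 in D, or 10.4 CPM (9.04 to 11.9). The level was 1.92-fold higher in P (log2 D over P -0.94, -1.18 to -0.71), and the log2 ratio was -1.36 relative to the median gene. In 0 of 12 cluster pairs was Nqo1 higher in D, and in 10 it was lower beyond counting error. Hmox1 (ENSMUSG00000005413, chr8:75093621-75100589, plus strand) had 453 UMIs in P, or 17.0 CPM (15.5 to 18.6), and 231 in D, or 11.4 CPM (9.96 to 12.9), a log2 ratio of -0.58 (-0.81 to -0.35) and of -0.999 relative to the median gene. Hmox1 was not lower in D throughout: it was higher in 6 of 12 cluster pairs (4 beyond counting error) and lower in 6 (all beyond it), from -1.16 (D0 over P0) to 1.26 (D1 over P3).

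Glutathione synthesis begins with glutamate-cysteine ligase, whose catalytic subunit is encoded by Gclc and whose modifier subunit is encoded by Gclm. Gclc (ENSMUSG00000032350, chr9:77754535-77794485, plus strand) stood at 32.0 CPM (29.9 to 34.3; 855 UMIs) in P and 33.4 CPM (30.9 to 36.0; 678 UMIs) in D, and these intervals overlapped. The log2 ratio was 0.06 (-0.09 to 0.21). Gclm (ENSMUSG00000028124, chr3:122245557-122270732, plus strand) stood at 115 CPM (111 to 119; 3057 UMIs) in P and 127 CPM (122 to 132; 2581 UMIs) in D, a log2 ratio of 0.15 (0.07 to 0.23). Relative to the median gene both lay below 0, at -0.36 for Gclc and -0.27 for Gclm. Gsr, glutathione reductase, returns oxidised glutathione to its reduced form at the cost of NADPH. Gsr (ENSMUSG00000031584, chr8:33652523-33698163, plus strand) was at 87.0 CPM (83.5 to 90.6; 2321 UMIs) in P and 72.4 CPM (68.8 to 76.2; 1471 UMIs) in D. Its log2 ratio was -0.26 (-0.36 to -0.17) on the CPM scale and -0.69 relative to the median gene, and on the latter scale it was lower in D in 12 of 12 cluster pairs.

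G6pdx encodes glucose-6-phosphate dehydrogenase, the first enzyme of the pentose phosphate pathway and a source of NADPH. G6pdx (ENSMUSG00000031400, chrX:74409483-74429194, minus strand) was at 46.8 CPM (44.3 to 49.5; 1249 UMIs) in P and 63.7 CPM (60.3 to 67.3; 1294 UMIs) in D. The log2 ratio was 0.45 (0.33 to 0.56). Relative to the median gene the ratio was 0.02 (-0.09 to 0.14), so the difference was of the size of the library-wide shift. The near-identical retrogene G6pd2 held 6 UMIs in P and 5 in D.

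Per cell, most members were sparse. After thinning each cell to 2100 UMIs, which kept 6638 cells of P and 4417 of D, Prdx1 was found in 53.9% (52.7 to 55.1) of P cells and 79.1% (77.8 to 80.2) of D cells. Gclm was found in 20.7% and 21.3%, Gsr in 15.9% and 14.3%, G6pdx in 8.65% and 11.8%, and Gclc in 6.09% and 6.59%. Txnrd1 was found in 4.64% (4.15 to 5.17) and 8.72% (7.90 to 9.59), Nqo1 in 3.90% (3.45 to 4.40) and 2.13% (1.72 to 2.60), Hmox1 in 3.60% and 2.20%, and Srxn1 in 1.61% and 3.51%. These shares followed the order of the CPM, and 6 of 9 were higher in D. For Gclc, Gclm and Gsr the intervals of P and D overlapped. Without thinning the shares were larger, for example 71.5% and 88.9% for Prdx1 and 7.96% and 16.6% for Txnrd1, and the same number, 6, was higher in D. How many of all genes were found in a larger share of D cells was not taken, with or without thinning. No cell type without these genes was present to give the share that free RNA alone would produce.

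Detection of several members in 1 cell was uncommon at this depth. At least 3 of the 9 members were detected in 8.39% of P cells and 12.2% of D cells, and none in 23.8% and 9.49%. Over the 36 pairs of members, Pearson's r of log counts across thinned cells lay between -0.02 and 0.06 in P and between -0.02 and 0.03 in D. The points are cells of 1 library each and the counts are sparse, so values this weak are no finding. The fifth of cells with most other members was also set against the fifth with fewest. In P, 4 members were higher in the former beyond counting error: Nqo1 (77 against 40 UMIs in 1327 cells each, log2 0.94, 0.38 to 1.53), Gclc (0.51), Gsr (0.43) and Prdx1 (0.15). In the same contrast over the 9 members, 4.40% of 5000 other genes exceeded 0.5 on the log2 scale, with a median of 0.05. The share of genes beyond counting error was not taken. Compared within clusters, Nqo1 was at 0.90 (0.34 to 1.47) and Prdx1 at 0.11 (-0.02 to 0.23). Without Prdx1 in the count of other members, Nqo1 was at 0.27 (-0.25 to 0.79) and Gclc at 0.22 (-0.23 to 0.67). In that setting only 2 members, Gsr and Prdx1, were higher beyond counting error. In D, 0 members were higher beyond counting error, and Nqo1 had 18 against 15 UMIs in 883 cells each.

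The members also differed between clusters of cells within each library. P0 (2580 cells) had 5 of 7 basal markers above the rest of its library. P1 (2540 cells) was led by Sprr3, Cnfn and Psca, with 8 of 9 detected squamous and 9 of 9 intermediate markers raised. Several intermediate markers, Foxq1 and Psca among them, were reported by the authors for clusters of these same libraries, so they are no independent support. P2 (1342 cells) was led by Fmo2, Mmp7, Agr2 and Slc7a11, itself an NRF2 target, and stays unnamed. P3 (356 cells) was proliferating, with 12 of 12 cell cycle markers raised. D0 (2821 cells) was led by Krt1, Ces1d and Reg1, D1 (1308 cells) by Cav1 and Acta2 with 6 of 7 basal markers raised, and D2 (767 cells) was luminal-like, with Upk3b and Upk3a among its 10 leading genes. Of the members, 6 in P and 4 in D were among the 2000 genes used to cluster, so differences between clusters are descriptions. In P, 4 of 9 members (Nqo1, Hmox1, Gclm and G6pdx) were 2-fold or more apart between the highest and lowest cluster, as were 32% of 9486 genes that reached 100 UMIs there. In D, 2 of 9 (Nqo1 and G6pdx) were, as were 20.4% of 9398 genes. With the members and the other NRF2 genes kept out of the clustering, 6 of 9 members in P and 2 of 9 in D were 2-fold or more apart. The share of all genes was not taken for that clustering, so these counts have no background beside them.

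**Figure D3:**
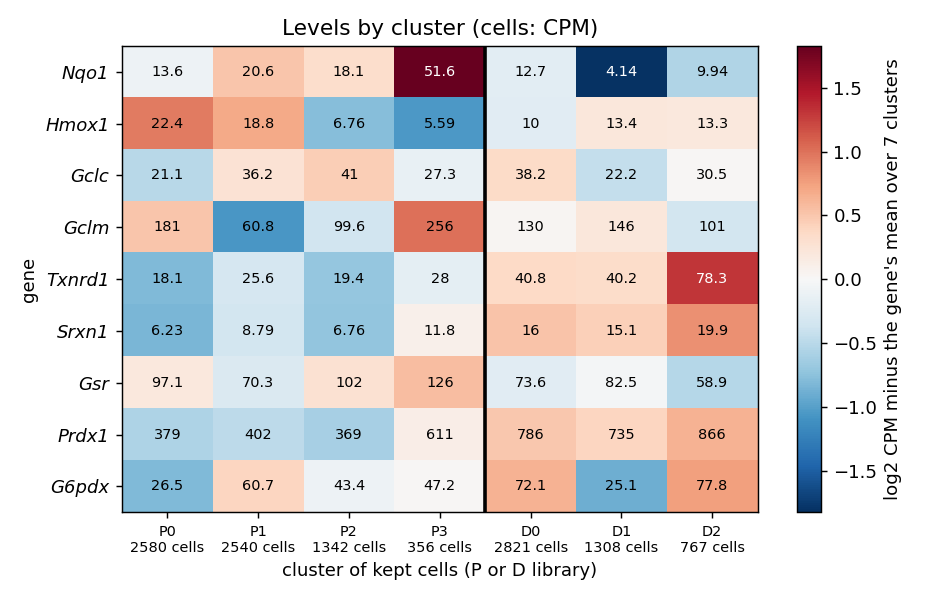
Level of each member in the 4 P and 3 D clusters. Numbers are CPM and colours show log2 CPM minus the gene's mean over the 7 clusters. Nqo1 and Gclm peak in the proliferating cluster P3, Hmox1 in P0, and Txnrd1 in the luminal-like cluster D2.

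The proliferating cluster P3 carried the highest level of Nqo1, Gclm, Txnrd1, Srxn1, Gsr and Prdx1 in P. The share of all genes that were highest in P3 was not taken, so this is no result particular to the members. Nqo1 was at 51.6 CPM in P3, 20.6 in P1, 18.1 in P2 and 13.6 in P0. The step from P3 to P1 was beyond counting error, whereas P1, P2 and P0 did not differ from their neighbours in that order beyond it. Gclm ran from 256 CPM in P3 through 181 in P0 and 99.6 in P2 to 60.8 in P1, and each step was beyond counting error. Prdx1 was at 611 CPM in P3 and between 369 and 402 in the other P clusters. Txnrd1 (28.0 CPM, 45 UMIs) and Srxn1 (11.8 CPM, 19 UMIs) in P3 did not differ from P1 (25.6 and 8.79 CPM) beyond counting error. Hmox1 ran the other way, with 22.4 CPM in P0, 18.8 in P1, 6.76 in P2 and 5.59, on 9 UMIs, in P3.

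G6pdx was lowest in P0 and D1, the clusters with the highest sum of basal markers in their libraries. It was at 26.5 CPM in P0, 43.4 in P2, 47.2 in P3 and 60.7 in P1, although P3 had 6 of 7 basal markers raised. In D it was at 25.1 CPM in D1 against 72.1 in D0 and 77.8 in D2. Nqo1 in D was also lowest in D1, with 4.14 CPM (17 UMIs), against 9.94 in D2 and 12.7 in D0. Set against the other cells of their own library, P0 and D1 had a lower level of Nqo1, Gclc, Txnrd1, Srxn1, Prdx1 and G6pdx and a higher level of Hmox1, Gclm and Gsr in both libraries. The sign was thus the same for 9 of 9 members, and for 7 of them (all except Hmox1 and Srxn1) the difference was beyond counting error in both libraries. For G6pdx the log2 ratio of P0 or D1 over the other cells was -1.06 in P and -1.55 in D, for Gclc -0.79 and -0.71, for Gclm 1.05 and 0.26, and for Gsr 0.23 and 0.24. These counts were also 9 and 7 when NRF2 genes were kept out of the clustering. The share of all genes with the same sign in P0 and D1 was not taken, so neither count is a result particular to the members. D1 also held most of the fibroblast-list transcripts of D (232 CPM summed, against 23.4 in D0 and 8.72 in D2), and their part in its levels was not tested.

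In the luminal-like cluster D2, Txnrd1 reached 78.3 CPM, beyond counting error above D0 (40.8 CPM) and D1 (40.2 CPM). Prdx1 (866 CPM) and Srxn1 (19.9 CPM) also had their highest level there, although Srxn1 did not differ from D0 (16.0 CPM) beyond counting error. Gclm (101 CPM) and Gsr (58.9 CPM) had their lowest level among D clusters in D2. Akr1b8, an aldo-keto reductase and NRF2 target that is no member, was at 650 CPM in D2 against 171 in D0 and 26.3 in D1.

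Within P, the Hmox1 level was highest in cells with most transcripts of the low-oxygen response. A list of 10 genes induced when oxygen is low (Ero1l, Bnip3, Vegfa, Slc2a1, Pdk1, Egln3, Ndrg1, Ankrd37, P4ha2 and Car9) was chosen after the levels of Hmox1 in finer clusters had been seen. The list was far higher in P than in D (1194 and 156 CPM summed). In thinned P cells, Hmox1 was at 6.25 CPM (23 UMIs) in the 1751 cells without a UMI of the list, at 13.2 CPM (72 UMIs) in the 2605 cells with 1 or 2, and at 33.0 CPM (158 UMIs) in the 2282 cells with 3 or more. The last was 5.27-fold above the first (log2 2.40, 1.76 to 3.10). Of 6340 genes outside the list, 2.54% were at least 2-fold higher and 1.29% at least 2-fold lower in the cells with 3 or more. Hmox1 was the 1 member of 9 past 2-fold. Txnrd1 was also higher (29.6 against 19.6 CPM, log2 0.60, 0.18 to 1.03). Gsr was lower (61.8 against 116 CPM, log2 -0.91, -1.13 to -0.70), as were Gclm (log2 -0.58), Gclc (-0.53) and Prdx1 (-0.39), each beyond counting error. Within P0 the Hmox1 level was 37.5 against 9.40 CPM (68 and 12 UMIs) and within P1 34.0 against 4.89 CPM (83 and 5 UMIs), so the difference was present inside both clusters. Txnrd1 was level within P0 (19.3 against 20.4 CPM, log2 -0.08) and higher within P1 (37.2 against 17.6 CPM, log2 1.08, 0.34 to 1.90). Gsr was lower within all 4 clusters, beyond counting error in P0, P1 and P2. Gclm was lower beyond counting error within P0 (log2 -0.54) and Gclc within P1 (-0.81), but Gclm was near level in P2 (0.04) and P3 (0.05), and Gclc was at 0.31 (-0.58 to 1.15) in P2.

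**Figure D4:**
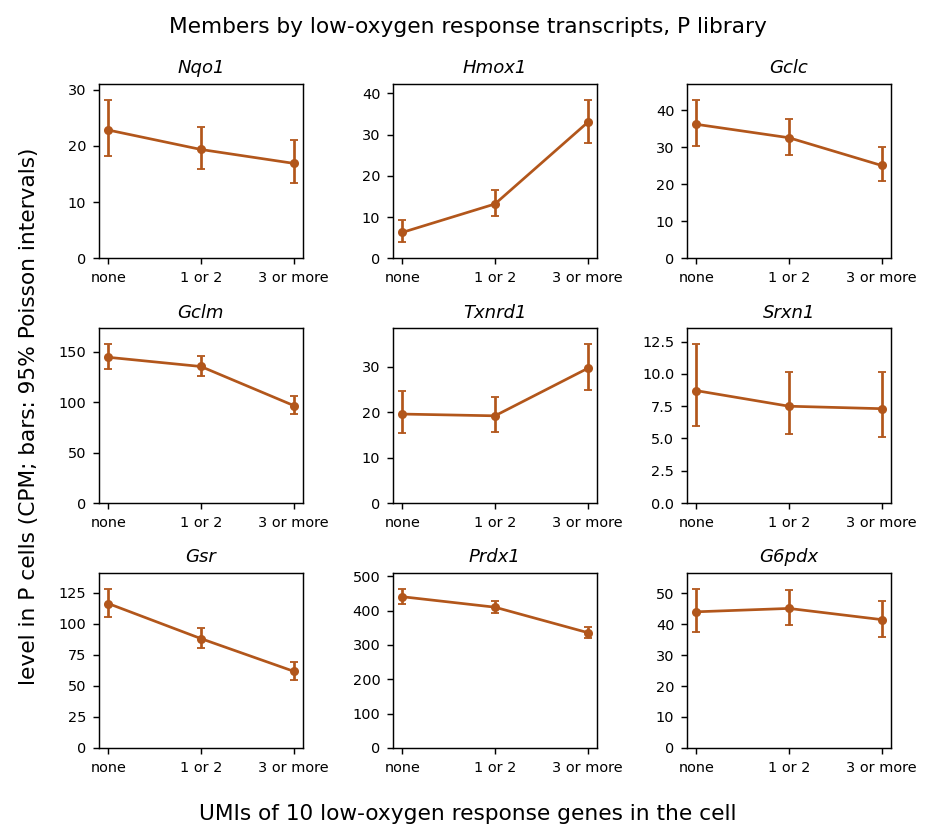
Level of each member (CPM, with 95% Poisson counting intervals) in P cells grouped by UMIs of 10 low-oxygen response genes after thinning to 2100 UMIs (none, 1 or 2, 3 or more). Hmox1 goes from 6.25 to 33.0 CPM while Gsr goes from 116 to 61.8 CPM.

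The direction of Hmox1 between the libraries turned when cells with a UMI of the list were left out. The list was chosen after Hmox1 was seen, and this step takes out the P cells with the highest Hmox1 level. It left 26.4% of thinned P cells and 73.4% of thinned D cells, so the turn is a description and its cause was not tested. Among cells without a UMI of the list (1751 in P, 3242 in D), Hmox1 was at 6.25 CPM in P and 10.6 CPM in D, a log2 ratio of 0.76 (0.06 to 1.50), whereas over all kept cells it was -0.58. Gclm turned as well, to -0.28 (-0.44 to -0.12). Nqo1 (-1.03), Txnrd1 (1.21), Srxn1 (0.97) and Prdx1 (0.83) kept their side. In D, 37 cells held 3 or more UMIs of the list, too few for a level of most members.

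Over 16 finer clusters (8 in each library, levels centred within each library), the gene most like G6pdx among 8930 candidates was Pcbd2 (Pearson's r 0.96), followed by Ezr (0.94). The gene most like Prdx1 was Fam173a (0.93), most like Gclm was Cmss1 (0.91), most like Gsr was Eef1akmt1 (0.91), most like Gclc was Slc5a9 (0.90), most like Hmox1 was Bsg (0.89), most like Nqo1 was Hmgn5 (0.89), most like Txnrd1 was Fam91a1 (0.88) and most like Srxn1 was Gxylt1 (0.85). Among the members themselves the closest pair was Gclc and G6pdx (0.78) and the most opposed was Hmox1 and Gsr (-0.73). Each most alike gene is the best of 8930 candidates over 16 points, and the best value reached by genes in general was not taken. The points share libraries and depth, and these are descriptions.

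Transcripts of the pathway's regulators differed less than 2-fold in 8 of 9 cases. None (0) reached 2-fold in D and 1 did in P, where 13.5% and 4.73% of all genes did. With 9 regulators these counts set them apart from other genes in neither direction. The regulators' median log2 ratio was 0.42, that of the median gene. Nfe2l2, which encodes NRF2, was at 176 CPM in P and log2 0.39 higher in D. Its repressor Keap1 differed by 0.08, the ligase scaffold Cul3 by 0.46, the competitor Bach1 by 0.44, the NRF2-stabilising adaptor Sqstm1 by 0.48 and the related factor Nfe2l1 by 0.42. Among the small MAF partners, Maff was the 1 regulator past 2-fold, with 638 UMIs (23.9 CPM) in P and 133 in D (log2 -1.87, -2.15 to -1.60), while Mafg differed by 0.04 and Mafk by 0.87. Transcript levels do not measure the amount of NRF2 protein.

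Other targets of NRF2 also split in both directions. Of 23, 6 reached 2-fold in D and 3 in P (13.5% and 4.73% of all genes), and their median log2 ratio was 0.21, beside 0.41 over all genes. The highest were Pir, which encodes pirin (1.73), Me1, the NADPH-forming malic enzyme (1.41), and Akr1b8 (1.27). The lowest were Blvrb, a biliverdin reductase (-1.70), Gpx2, a glutathione peroxidase of epithelia (-1.24), and Slc7a11, the cystine importer that feeds glutathione synthesis (-1.13). Txn1, thioredoxin itself and the substrate of Txnrd1, differed by 0.13, and Osgin1 by -0.37. Of 16 antioxidant enzymes that are not counted here as NRF2 targets, 3 reached 2-fold in D (Msra 1.14, Sesn2 1.12 and catalase, Cat, 1.01) and 0 in P (13.5% and 4.73% of all genes), with a median of 0.46. The lowest were Prdx6 (-0.33), Glrx (-0.20) and Prdx4 (0.04). Relative to the shift of the median gene, 1 of the 23 other targets reached 2-fold in D and 3 in P, and 0 of the 16 enzymes in either direction, where 5.64% and 8.65% of all genes did.

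RNA quality and the dissociation response moved with the conditions. Per 1000000 UMIs outside mitochondrial genes, Hmox1 in P was at 29.7 (25.9 to 34.0) in cells under 5% mitochondrial UMIs and 13.4 (11.8 to 15.2) in cells from 5 to 12%, whereas Nqo1 was at 13.7 (11.1 to 16.7) and 24.2 (22.0 to 26.6). In D, Hmox1 was at 13.7 and 12.1 and Nqo1 at 10.9 and 11.2 in the same classes, and their intervals overlapped. Mitochondrial transcripts made up 4.84% of UMIs in thinned P cells with 3 or more low-oxygen UMIs and 6.42% in those with none. The split of P cells by mitochondrial share was not told apart from that by low-oxygen transcripts. Early-response genes, which rise when tissue is dissociated, were higher in D for 11 of 11 genes (5 at least 2-fold, median log2 0.98, with Fos at 1.45 and Atf3 at 2.26). Within P, the member that differed most between cells with and without such transcripts was Gclm (log2 -0.33, -0.51 to -0.13). In D, 154 of 4417 thinned cells held none, and without cells holding such transcripts the log2 ratio of Hmox1 was 0.40 on 29 and 7 UMIs and that of Gclm was -0.48. The part of mitochondrial share and of dissociation in these differences was not tested.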

How the data were processed

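Both libraries were sequenced with the 10x Genomics 3′ v3 chemistry. The authors used bcl2fastq 2.19.0 and Cell Ranger 3.0.2 with the GRCm38/mm10 transcriptome, and deposited raw UMI counts per gene and barcode as whole numbers with no normalization. Cells with over 800 genes and at most 12% mitochondrial UMIs were kept, and no doublet caller was run. UMIs were summed per library or cluster and divided by all UMIs (CPM), which is relative to total RNA and moves with the ribosomal share. Intervals at 95% are exact Poisson, Clopper-Pearson and conditional binomial, for counting error only. A gene counted as higher at 2-fold or more with at least 100 UMIs over both libraries. Seurat 5.3.0 in R 4.3.3 clustered each library (2000 variable features, 25 components in P and 21 in D, resolution 0.2, and 0.8 for finer clusters). Ratios and intervals were tested on simulated data. Gene positions are from GENCODE on GRCm38. The members and lists were chosen with earlier results of these data known. Named genes were all members and regulators, the 3 highest and 3 lowest of each other list with Slc7a11, Txn1, Osgin1, Gpx2 and Cat, the most alike genes, and markers beside results. Prdx2, Prdx3, Prdx5, Txn2, Txnrd2, the low-oxygen genes and the values of Akr1b8 by cluster were chosen after the data were seen. Alternatives covered scaling, cell filters, depth, weighting, low counts and clustering.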

Additional observations from a re-analysis of the deposited data

Results flagged for a closer look

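Barcodes outside the cell filter, which enter no comparison above, still held transcripts of the members. The 1376 barcodes left out of P carried 1424 UMIs of the 9 genes and the 2079 left out of D carried 1552. Per 1000000 UMIs outside mitochondrial genes, Prdx1 was at 322 (297 to 348) in left-out against 427 in kept barcodes of P, and at 397 (371 to 425) against 853 in D. Gclm was at 162 (145 to 181) against 122 in P and at 97.5 (84.5 to 112) against 137 in D. Txnrd1 was at 51.2 (41.9 to 61.9) against 52.0 in D. What set these differences was not tested.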

How the results depend on the processing

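No paired analysis was possible because each group held 1 library, and with 1 library per group no replicate could be left out. The median log2 ratio of the members, 0.15 on the CPM scale, was -0.19 without mitochondrial and ribosomal protein genes in the totals and -0.27 by the median ratio, 0.31 without cells holding proliferation UMIs, 0.40 without cells holding early-response UMIs (154 cells left in D) and 0.49 without cells holding low-oxygen UMIs. The count at least 2-fold higher in D, 2, was 0 under both scalings, 1 after thinning, without early-response cells and without low-oxygen cells, and 3 without proliferating cells. The count higher in P, 0, was 1 under both scalings, with cells weighted equally, without the 5% of cells with the most UMIs, without early-response cells and without low-oxygen cells. Gclm was -0.19 and -0.27 under the scalings, -0.028 after thinning, -0.48 without early-response cells and -0.28 without low-oxygen cells, and Hmox1 was 0.40 and 0.76 in the last 2 settings. At resolution 0.4, 8 members in P and 4 in D were 2-fold apart between clusters, with more clusters compared. With NRF2 genes kept out of the clustering they were 6 and 2. In neither setting was the share of all genes taken. Members higher in D in all 12 cluster pairs numbered 3 on the CPM scale and 1 by the median ratio, and the share of all genes was not taken. Nqo1, Hmox1, Txnrd1, Srxn1, Gsr, Prdx1 and G6pdx kept their direction under the 10 scaling, filter, depth and cycling alternatives. The low-oxygen setting and the median ratio for pairs were chosen after seeing the data. Otherwise the cause was not tested. Depth limits Srxn1, Hmox1 and Nqo1, which had under 100 UMIs in several clusters.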
